A study of Mus musculus with 20 samples.

Results

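The cathepsins and cystatins measured here were 10 genes, taken by name from a table of 39056 genes: the cystatins Cst7 and Cst3 and the cathepsins Ctsa, Ctsb, Ctsd, Ctse, Ctsh, Ctsl, Ctss and Ctsz. All 10 were among the 16107 genes that passed the filter on low counts. The counts came from RNA-seq of the left hippocampus of 20 female mice on a C57BL/6 background, aged about a year, 5 per group in 4 groups, which differed in miR-34a genotype (wild type, WT, or constitutive whole-body knockout, KO) and in the Tg-SwDI transgene, and were WT Non-Tg, KO Non-Tg, WT Tg-SwDI and KO Tg-SwDI. The transgene encodes human amyloid precursor protein with the Swedish, Dutch and Iowa mutations, is driven by the Thy1 promoter, which is active mainly in neurons, and comes from a single transgenic line. Both miR-34a genotypes were bred from the same crosses, and the mice were perfused before the hippocampus was taken. Each library held between 19549622 and 21066868 counts on genes.

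Cathepsins are proteases of the endosome and lysosome that break down proteins taken up from outside the cell or delivered by autophagy. They are made as inactive precursors and are cut to the active form in the acidic compartment. Cathepsins B, H, L, S and Z carry a cysteine in the active site, cathepsins D and E are aspartic proteases, and cathepsin A is a serine carboxypeptidase. Cystatins bind in the active site of cysteine cathepsins and block it. In the brain, microglia, the resident phagocytes, are a rich source of many of these transcripts, and Cst7, Ctsb, Ctsd and others are known to be raised in microglia that gather at amyloid plaques.

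The labels and libraries were checked first. Reads on Thy1, whose promoter drives the transgene, ranged from 684 to 769 CPM (counts scaled to the TMM-adjusted size of each library) over the 10 Non-Tg mice and from 1903 to 3316 CPM over the 10 that carried the transgene, so every library matched its transgene label. Mir34a was not analysed here, so the KO label has no check of this kind. In KO Tg-SwDI replicate 8, mitochondrial genes held 14.6% of the counts, against 6.94% to 8.76% in the other 19 libraries. The 14 choroid plexus markers summed to 68.7 CPM in the lowest library and 4500 CPM in the highest, and all 5 KO Non-Tg libraries were low, between 70.2 and 365 CPM. Neutrophil and T and B cell marker lists, each of 9 genes, summed to at most 1.65 and 2.41 CPM in any mouse.

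The sequences that bear on the design are shown next. The miR-34a gene lies on chromosome 4, and its mature 5p arm (chr4:150068473-150068494, plus strand, RefSeq, GRCm38.p6) is printed with the seed, bases 2 to 8, in capitals.

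miR-34a-5p: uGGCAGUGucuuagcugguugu

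The 3′UTRs of the 10 genes in GENCODE M21 were searched for the letters that pair with seed bases 2 to 8, or with bases 2 to 7 followed by an A. Of the 14699 tested genes with an annotated 3′UTR, 24.8% held at least 1 match of these 2 kinds, and 3 of the 10 members did. Ctsa had a match to bases 2 to 8 in the longer of its annotated 3′UTRs, which runs to 1798 bases. Ctsb and Ctsl each had a match to bases 2 to 7 with the A, in 3′UTRs of 3594 and 4761 bases. That of Ctsl was found only in the longest 3′UTR of its 3 annotated transcripts. The matches are printed in capitals with the bases beside them, and a match is a description of letters, not a shown target site.

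Ctsa: tgcgccacCACTGCCcggcgcct
Ctsb: tgacccggACTGCCAtcttctta
Ctsl: caagtgcaACTGCCAgtgggcat

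Cst7, Cst3, Ctsd, Ctse, Ctsh, Ctss and Ctsz held no match, in 3′UTRs of 218 bases (Ctss) to 660 bases (Ctsd). Promoters are shown because the 10 genes rose together in Tg-SwDI mice. RefSeq windows of 300 bases (250 before the start and 50 from it on, GRCm38.p6) were found for 7 of the 10 genes, 8 windows in all, Ctsa having 2. They were searched on both strands for CACGTG, the core of the element bound by the lysosomal regulators TFEB, TFE3 and MITF, for GAGGAAG, the core bound by the myeloid factor PU.1, and for GAAANNGAA, a core bound by interferon regulatory factors. These were held by 7.15%, 13.6% and 8.56% of all 32851 windows. CACGTG occurred 2 times in the Ctsd window, 2 times in 1 of the Ctsa windows and once in the Ctsl window, while GAGGAAG (on the opposite strand) and GAAANNGAA occurred once each in the Ctss window, without overlapping. The windows of Cst7, Cst3 and Ctsz and the other Ctsa window held none of the 3 letter strings. The windows with a match, and that of Cst7, are printed on the strand of the gene with the matched letters in capitals.

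Ctsd, chr7:142387778-142388077, minus strand: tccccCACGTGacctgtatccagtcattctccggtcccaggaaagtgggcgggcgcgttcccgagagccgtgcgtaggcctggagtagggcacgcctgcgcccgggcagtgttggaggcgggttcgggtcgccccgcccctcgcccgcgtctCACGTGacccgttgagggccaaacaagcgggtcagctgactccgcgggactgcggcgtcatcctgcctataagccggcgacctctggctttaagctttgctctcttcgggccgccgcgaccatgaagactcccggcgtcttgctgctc
Ctsa, chr2:164833523-164833822, plus strand: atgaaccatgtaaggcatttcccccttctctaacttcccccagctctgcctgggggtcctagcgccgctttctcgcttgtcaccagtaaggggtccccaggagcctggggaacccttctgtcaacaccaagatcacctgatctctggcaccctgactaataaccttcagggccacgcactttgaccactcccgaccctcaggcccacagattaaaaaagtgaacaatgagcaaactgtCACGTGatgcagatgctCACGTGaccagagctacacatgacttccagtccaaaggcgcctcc
Ctsl, chr13:64370471-64370770, minus strand: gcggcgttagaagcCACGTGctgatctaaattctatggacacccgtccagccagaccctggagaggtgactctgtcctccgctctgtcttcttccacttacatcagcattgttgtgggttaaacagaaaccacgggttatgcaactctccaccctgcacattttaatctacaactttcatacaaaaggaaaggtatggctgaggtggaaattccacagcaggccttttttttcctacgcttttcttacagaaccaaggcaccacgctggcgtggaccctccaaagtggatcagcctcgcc
Ctss, chr3:95526536-95526835, plus strand: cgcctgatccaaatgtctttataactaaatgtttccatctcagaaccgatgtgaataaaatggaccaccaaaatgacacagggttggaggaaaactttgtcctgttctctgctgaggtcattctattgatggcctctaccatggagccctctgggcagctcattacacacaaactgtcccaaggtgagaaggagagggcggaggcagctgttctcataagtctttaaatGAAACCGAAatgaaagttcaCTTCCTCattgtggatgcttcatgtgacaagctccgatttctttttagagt
Cst7, chr2:150570165-150570464, plus strand: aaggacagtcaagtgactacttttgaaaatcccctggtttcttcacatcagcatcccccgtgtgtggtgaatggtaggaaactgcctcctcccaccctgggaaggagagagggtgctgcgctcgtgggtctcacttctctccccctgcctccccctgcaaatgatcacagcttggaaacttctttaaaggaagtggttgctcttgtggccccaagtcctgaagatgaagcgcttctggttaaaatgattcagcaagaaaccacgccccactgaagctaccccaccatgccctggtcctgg

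In GENCODE M21 (mm10), Cst7 lies at chr2:150570415-150578944 and Cst3 at chr2:148871722-148875692, and Ctsa (chr2:164832873-164841032) and Ctsz (chr2:174427493-174439039) are on the same chromosome. Ctse lies at chr1:131638306-131675505, Ctss at chr3:95526786-95556403, Ctsd at chr7:142375911-142388038 and Ctsh at chr9:90054152-90076089. Ctsl is at chr13:64359337-64370890 and Ctsb at chr14:63122462-63145923. Exons of Ctsd share 808 bases with those of Gm49369 on the same strand, and Ctsl shares 395 bases with Gm49230 on its strand. Ctsa, Ctsb, Ctsl and Ctsz overlap exons of genes on the opposite strand by 819, 774, 1742 and 10 bases, and whether the counting used the strand is not given in the sources used here.

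Levels were compared between genes only after division by exon length. In WT Non-Tg mice, Cst3, the secreted cystatin C, was the highest of the 10 at 759 ± 52.3 CPM per kilobase of exon (SD, n = 5). Ctsd followed at 114 ± 19.1, Ctsb at 94.1 ± 2.05, Ctss at 57.3 ± 11.1, Ctsz at 24.6 ± 3.54 and Ctsa at 21.2 ± 0.722 on the same scale. Ctsd and Ctsb, and Ctsz and Ctsa, differed by less than their summed SDs. Ctsl (8.61 ± 0.940), Ctsh (2.92 ± 0.707) and Cst7 (0.553 ± 0.328) were lower, and Ctse was counted only 2 times in the 5 mice together. In KO Tg-SwDI mice the order of levels per length was Cst3 (1062 ± 163), Ctsd (411 ± 23.0), Ctss (189 ± 39.9), Ctsb (153 ± 9.56), Cst7 (105 ± 16.3) and Ctsz (84.2 ± 13.1), then Ctsa, Ctsl, Ctsh and Ctse. There, Ctss and Ctsb, and Cst7 and Ctsz, differed by less than their summed SDs. Ctse alone was below Cst7 in WT Non-Tg mice, whereas Ctsz, Ctsa, Ctsl, Ctsh and Ctse were below it in KO Tg-SwDI mice.

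**Figure D1:**
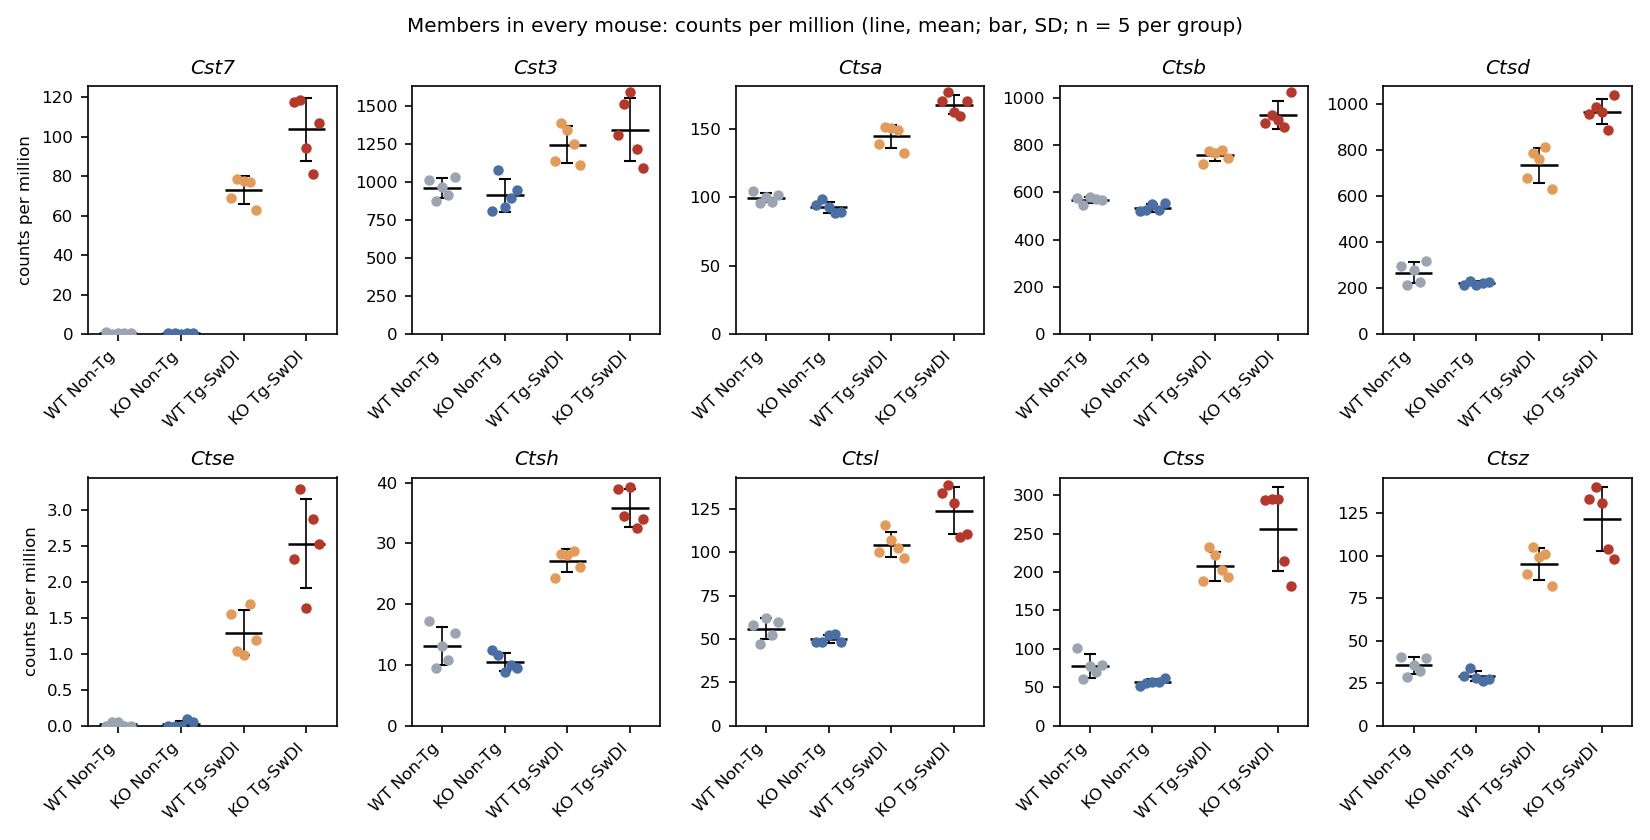
CPM of each member (vertical axis, from 0) in each of the 20 mice, by group; points are mice, the line is the mean and the bar the SD of 5 mice. In each panel the 5 WT Tg-SwDI mice lie above the 5 WT Non-Tg mice and the 5 KO Tg-SwDI mice above the 5 KO Non-Tg mice.

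The first question was how the transgene changed these genes in mice with and without miR-34a. All 10 were called higher with the transgene in both genotypes (edgeR quasi-likelihood) at an adjusted p below 0.05 (Benjamini-Hochberg over 16107 genes). Among all genes tested, 3.94% were called higher and 0.466% lower in WT mice, and 12.5% and 8.31% in KO mice. The 10 genes were chosen with earlier results of these data known, so setting them beside these shares is a description and not a test. No mouse of one group overlapped the other for any of the 10 genes in either genotype, while 5.1% of all genes were higher without overlap in WT mice and 8.47% in KO mice. Cst7 and Ctse passed the filter on low counts only through the Tg-SwDI mice. Their calls and lack of overlap here were thus favoured in advance and add no support. The median log2 fold change of the 10 genes was 1.23 in WT mice (from 0.37 to 7.04) and 1.92 in KO mice (from 0.56 to 7.99), beside medians of 0 and -0.0048 over all genes tested. Together the 10 genes took 2081 ± 148 CPM in WT and 1907 ± 118 CPM in KO mice without the transgene, and 3389 ± 259 CPM in WT and 4048 ± 283 CPM in KO mice with it (SD, n = 5 each).

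Cst7 encodes cystatin F, an inhibitor that is sorted into endosomes and lysosomes. It had 23, 5, 12, 9 and 8 counts in the 5 WT Non-Tg mice (0.248 to 1.09 CPM) and 8, 11, 4, 11 and 8 counts in the KO Non-Tg mice (0.193 to 0.527 CPM). In WT Tg-SwDI mice it stood at 68.9, 78.8, 77.7, 77.1 and 62.9 CPM, and in KO Tg-SwDI mice at 117.5, 118.8, 94.3, 81.0 and 107 CPM. It was close to undetected in every Non-Tg mouse and plainly present in every Tg-SwDI mouse. The log2 fold change with the transgene was 7.04 ± 0.19 (SE) in WT mice and 7.99 ± 0.19 in KO mice (adjusted p = 4.14e-16 and 2.43e-17), and both rest on few counts in the Non-Tg mice. Cst3, by far the more abundant cystatin, changed least: it rose by a log2 fold change of 0.37 ± 0.09 in WT mice (961 ± 66.2 to 1246 ± 123 CPM, adjusted p = 0.018) and 0.56 ± 0.09 in KO mice (912 ± 107 to 1344 ± 206 CPM, adjusted p = 0.000135). The Cst3 call in WT mice was lost with library size alone as the scale and when any of WT Non-Tg replicates 3 and 6 or WT Tg-SwDI replicates 4 and 5 was left out (adjusted p up to 0.0648).

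Among the aspartic proteases, Ctsd encodes cathepsin D, a main lysosomal endopeptidase. Its levels were 297, 214, 278, 228 and 319 CPM in WT Non-Tg mice and 213, 232, 212, 223 and 225 CPM in KO Non-Tg mice. They were 678, 785, 759, 815 and 630 CPM in WT Tg-SwDI mice and 957, 987, 965, 887 and 1037 CPM in KO Tg-SwDI mice. The 4 groups formed 3 separate levels, with the Non-Tg groups overlapping each other at the bottom and the KO Tg-SwDI mice all at the top. The log2 fold change with the transgene was 1.46 ± 0.09 in WT mice and 2.13 ± 0.09 in KO mice (adjusted p = 7.22e-11 and 3.83e-14).

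Ctse encodes cathepsin E, an aspartic protease of endosomes that most tissues express little. It had 2 counts in the 5 WT Non-Tg mice together and 3 in the 5 KO Non-Tg mice together, and no Non-Tg mouse had more than 2. The WT Tg-SwDI mice had 33, 22, 20, 35 and 25 counts and the KO Tg-SwDI mice 49, 63, 34, 56 and 46. Every Tg-SwDI mouse was thus above every Non-Tg mouse. The ratio of pooled counts, scaled to library sizes, was 67.0 in WT mice (95% exact interval 18.2 to 558) and 87.3 in KO mice (29.5 to 426), intervals that cover counting error only.

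Of the cysteine cathepsins, Ctss and Ctsz rose most. Ctss, which trims the invariant chain in antigen-presenting cells, ranged from 60.6 to 101 CPM in WT Non-Tg and from 52.2 to 62.1 CPM in KO Non-Tg mice. It ranged from 188 to 232 CPM in WT Tg-SwDI mice and from 182 to 296 CPM in KO Tg-SwDI mice. Its log2 fold changes were 1.42 ± 0.14 and 2.18 ± 0.14 (adjusted p = 1.14e-06 and 1.66e-09). Ctsz, a carboxypeptidase also called cathepsin X, went from 35.4 ± 5.11 to 95.2 ± 9.36 CPM in WT mice and from 29.0 ± 2.92 to 121 ± 18.8 CPM in KO mice, log2 fold changes of 1.43 ± 0.11 and 2.06 ± 0.11. The aminopeptidase gene Ctsh rose from 13.1 ± 3.18 to 27.1 ± 1.89 CPM (1.04 ± 0.12 on the log2 scale) and from 10.5 ± 1.497 to 35.9 ± 3.10 CPM (1.77 ± 0.12). The endopeptidase gene Ctsl rose by 0.90 ± 0.07 and 1.31 ± 0.07 on the log2 scale, from 55.9 ± 6.10 to 104 ± 7.38 CPM and from 49.96 ± 2.34 to 124 ± 13.7 CPM.

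Ctsb and Ctsa rose by less, and their coefficients of variation were at most 6.25% and 5.77% in any group. Ctsb encodes cathepsin B, which cuts both inside proteins and at their carboxyl end. Its levels were 575, 549, 581, 573 and 569 CPM in WT Non-Tg mice and 522, 525, 551, 523 and 555 CPM in KO Non-Tg mice. They were 722, 773, 765, 781 and 745 CPM in WT Tg-SwDI mice and 894, 928, 908, 878 and 1024 CPM in KO Tg-SwDI mice. Again the KO Tg-SwDI mice stood above all others, and the Non-Tg groups overlapped. The log2 fold change with the transgene was 0.41 ± 0.05 in WT mice and 0.79 ± 0.05 in KO mice (adjusted p = 3.33e-07 and 9.07e-13). Ctsa, whose product also protects the sialidase Neu1 and the galactosidase Glb1 in a complex, rose from 99.8 ± 3.41 to 145 ± 8.34 CPM in WT mice and from 92.8 ± 3.93 to 168 ± 7.15 CPM in KO mice, log2 fold changes of 0.53 ± 0.05 and 0.85 ± 0.05.

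**Figure D2:**
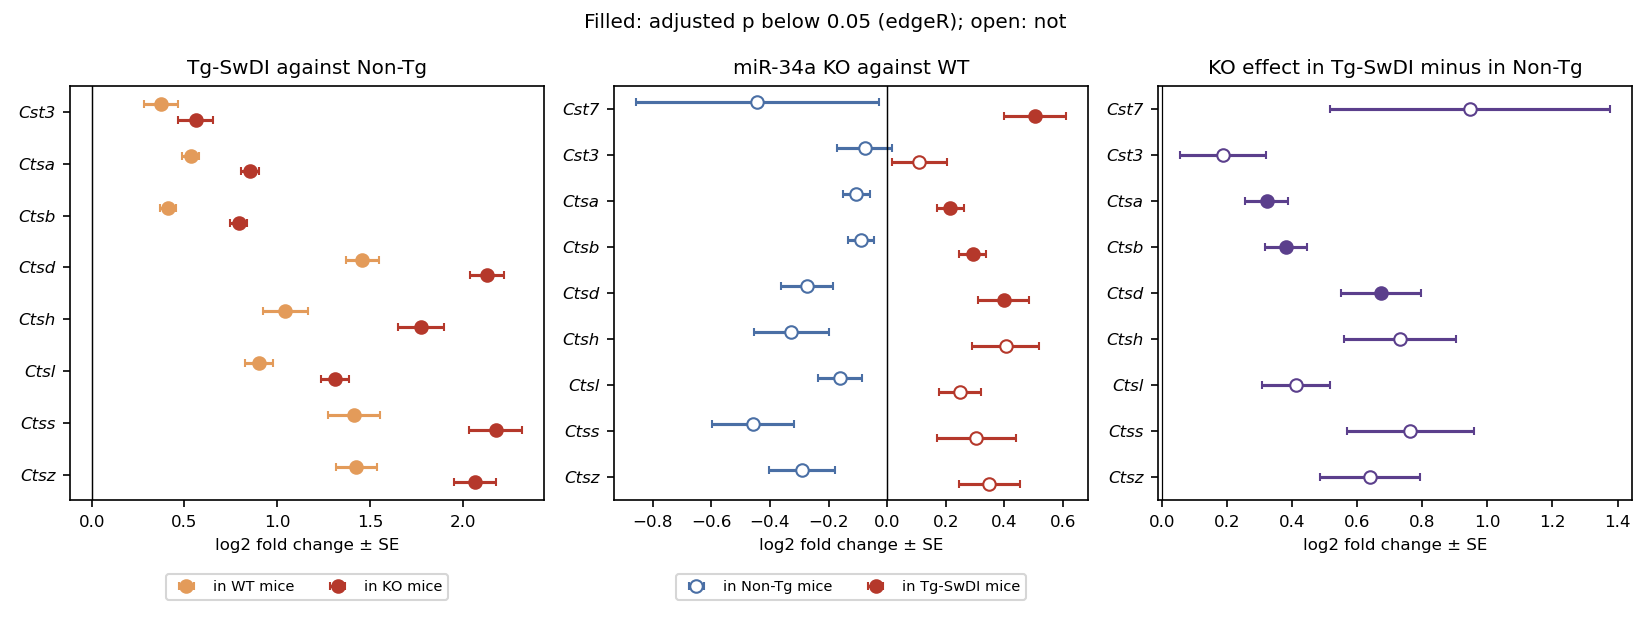
Log2 fold change ± SE (horizontal axis) from the edgeR fit for the transgene in each genotype (left, without Cst7 and Ctse, which lie off the scale), for miR-34a KO in each transgene state (middle, without Ctse) and for the difference of the KO effects (right, without Ctse). Filled points passed an adjusted p of 0.05; all 8 on the left are filled in both genotypes, the open points in the middle include all 9 in Non-Tg mice, and Ctsa, Ctsb and Ctsd are filled on the right.

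Markers of microglia moved in the same direction. All 14 were called higher with the transgene in both genotypes, with a median log2 fold change of 0.85 in WT mice and 1.36 in KO mice, and their summed level ranged from 456 to 582 CPM (WT) and 455 to 494 CPM (KO) without the transgene and from 904 to 1066 CPM (WT) and 1144 to 1464 CPM (KO) with it. Markers of some other cell types moved too. Of 7 astrocyte markers, 5 were called higher with the transgene in WT and 4 in KO mice (median log2 fold change 0.20 and 0.25), and of 6 oligodendrocyte markers 1 and 5 (0.10 and 0.29). Of 14 choroid plexus markers none was called in WT mice and 12 were in KO mice (0.36 and 3.14). Of 7 neuron markers none was called in WT mice and 2 were called lower in KO mice (-0.09 and -0.06). Of 9 border macrophage markers none was called in either genotype (-0.13 and 0.14). With the choroid plexus level as a covariate all 10 members were still called in both genotypes; the part of astrocytes and oligodendrocytes was not tested. In bulk tissue, more cells of a type and more RNA per cell cannot be told apart. To set the members beside the microglia markers, each gene was also divided, mouse by mouse, by the geometric mean of those 14 markers, a description with no test. Medians of this ratio are given in the order WT Non-Tg, KO Non-Tg, WT Tg-SwDI, KO Tg-SwDI. That of Ctsd was 10.6, 9.45, 16 and 15.9, and that of Ctss was 3.05, 2.43, 4.44 and 4.43. Ctsz also rose relative to the markers (1.45, 1.2, 2.06 and 2.1), and for Ctsd, Ctss and Ctsz the Tg-SwDI and Non-Tg mice of 1 genotype did not overlap. Ctsl stayed near its starting ratio (2.19, 2.03, 2.14 and 2.09), and Ctsh was at 0.533, 0.440, 0.574 and 0.624, its WT groups overlapping. The ratios of Cst3 (38.4, 39.4, 26.8 and 22.7), Ctsa (4.04, 3.91, 3.06 and 2.69) and Ctsb (23.7, 23.0, 16 and 15) were lower in Tg-SwDI mice, without overlap within a genotype. Cst7 went from 0.0188 and 0.0162 in Non-Tg mice to 1.58 and 1.79 in Tg-SwDI mice. Against this geometric mean, some members thus rose more and some less, with Ctsl and, in WT mice, Ctsh between them. The 14 markers themselves ranged in log2 fold change from 0.36 to 1.57 in WT mice and from 0.62 to 2.01 in KO mice. In WT mice Ctsd, Ctss, Ctsz, Ctsa, Ctsb and Cst3 all lay within that range. The split thus holds for the mean of the markers and not for each marker.

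**Figure D3:**
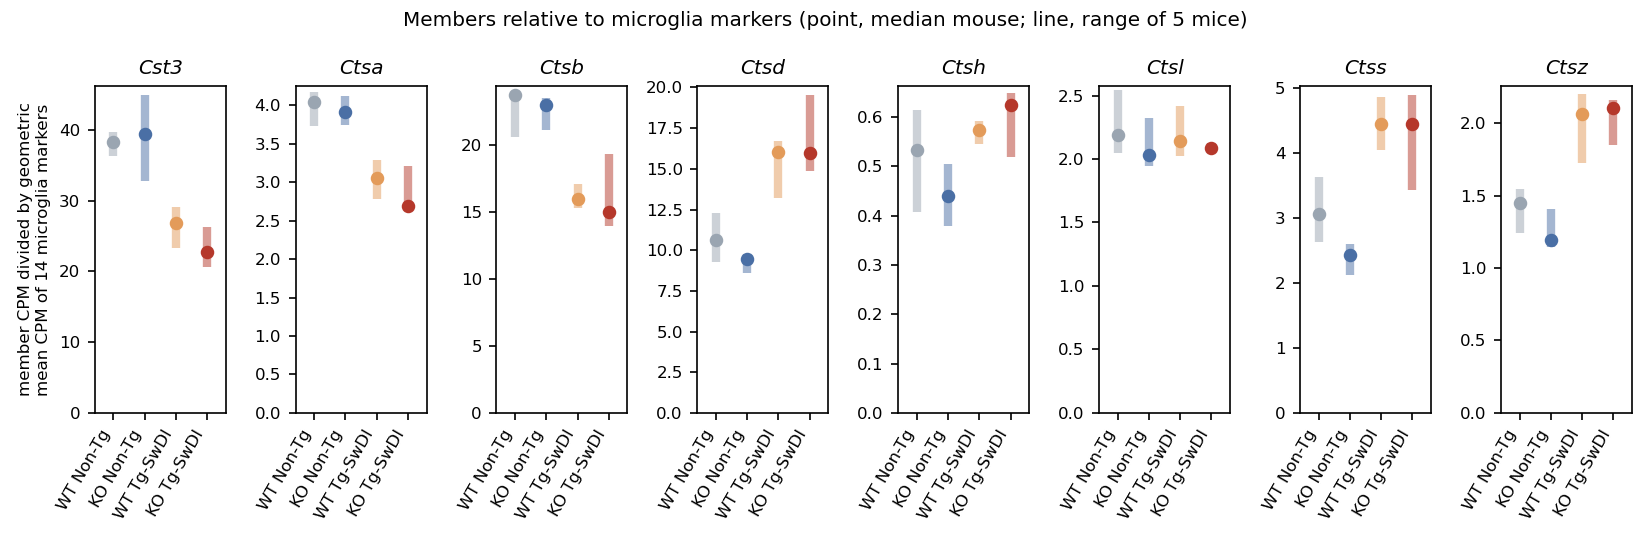
CPM of each of 8 members divided by the geometric mean of 14 microglia markers (vertical axis, from 0, no unit), by group; points are the median mouse and lines the range of 5 mice. Ctsd, Ctss and Ctsz sit higher in both Tg-SwDI groups, Cst3, Ctsa and Ctsb sit lower, and Ctsl stays near 2.

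The second question was whether loss of miR-34a changed these genes in Tg-SwDI mice, a comparison that shares its mice with both transgene comparisons. The fitted change was upward for all 10 genes, with a median log2 fold change of 0.33, and 5 were called higher: Ctsb, Ctsa, Cst7, Ctsd and Ctse. Among all genes tested, 1.48% were called higher and 0.503% lower. Ctsb changed by 0.29 ± 0.05 (adjusted p = 0.00182), Ctsa by 0.22 ± 0.05 (0.0173), Cst7 by 0.50 ± 0.11 (0.0207) and Ctsd by 0.40 ± 0.09 (0.0212) on the log2 scale. Cst7, Ctsa, Ctsb, Ctsd and Ctsh were higher in each of the 5 KO mice than in any WT mouse, which 2.04% of all genes were. Ctse changed by 0.96 ± 0.23 (adjusted p = 0.0326), with 248 counts in KO and 135 in WT mice, a scaled ratio of 1.94 (95% exact interval 1.57 to 2.42), and 1 KO mouse, at 1.64 CPM, was below the highest WT mouse at 1.69 CPM.

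The other 5 genes did not pass the test in Tg-SwDI mice. Ctsh had a log2 fold change of 0.40 ± 0.12 and Ctsl of 0.25 ± 0.07, each at an adjusted p of 0.0682. Ctsz was at 0.35 ± 0.10 (0.0822), Ctss at 0.30 ± 0.13 (0.231) and Cst3 at 0.11 ± 0.09 (0.557). Ctss had a coefficient of variation of 21.1% in KO and 9.14% in WT Tg-SwDI mice. It was 19.4% in WT and 6.38% in KO Non-Tg mice, whose spread also enters the fit. Of the KO Tg-SwDI mice, 3 were at 294 to 296 CPM for Ctss and 2 at 215 and 182 CPM. These 2 mice, replicates 5 and 8, were also the lowest of their group for Ctsz (104 and 98.2 CPM) and Ctsl (109 and 110 CPM). Replicate 8 was, however, the highest of its group for Ctsb (1024.5 CPM) and Ctsd (1037 CPM). Microglia markers moved with the KO against WT differences, 5 of 14 being called higher in KO mice (median log2 fold change 0.29). So did Thy1, at 1903 to 2327 CPM in WT and 2452 to 3316 CPM in KO Tg-SwDI mice. The part of either in the result was not tested.

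How many of the 10 genes were called in KO against WT Tg-SwDI mice depended on single mice and on the setting. It was 1 (Ctsb) without WT Tg-SwDI replicate 3 or without WT Tg-SwDI replicate 7, where the calls over all genes also fell, from 320 to 133 and 78, and 6 without KO Tg-SwDI replicate 8, the library with the high mitochondrial share, where Ctsl and Ctsz were called and Ctsd was not (adjusted p = 0.051). Without mitochondrial genes the count was 5, and with the choroid plexus level as a covariate it was 7. The Ctse call was also lost without WT Tg-SwDI replicate 4 or 5 or KO Tg-SwDI replicate 5. With only the 10 mice compared it was lost too (adjusted p = 0.0695). That of Ctsa was lost with library size alone (0.0824), with only the 10 mice compared (0.116) and with GC content and length trends removed (0.0971). Ctsb was called under every alternative but the replicate block, with a log2 fold change from 0.24 to 0.31 and an adjusted p of at most 0.0488.

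**Figure D4:**
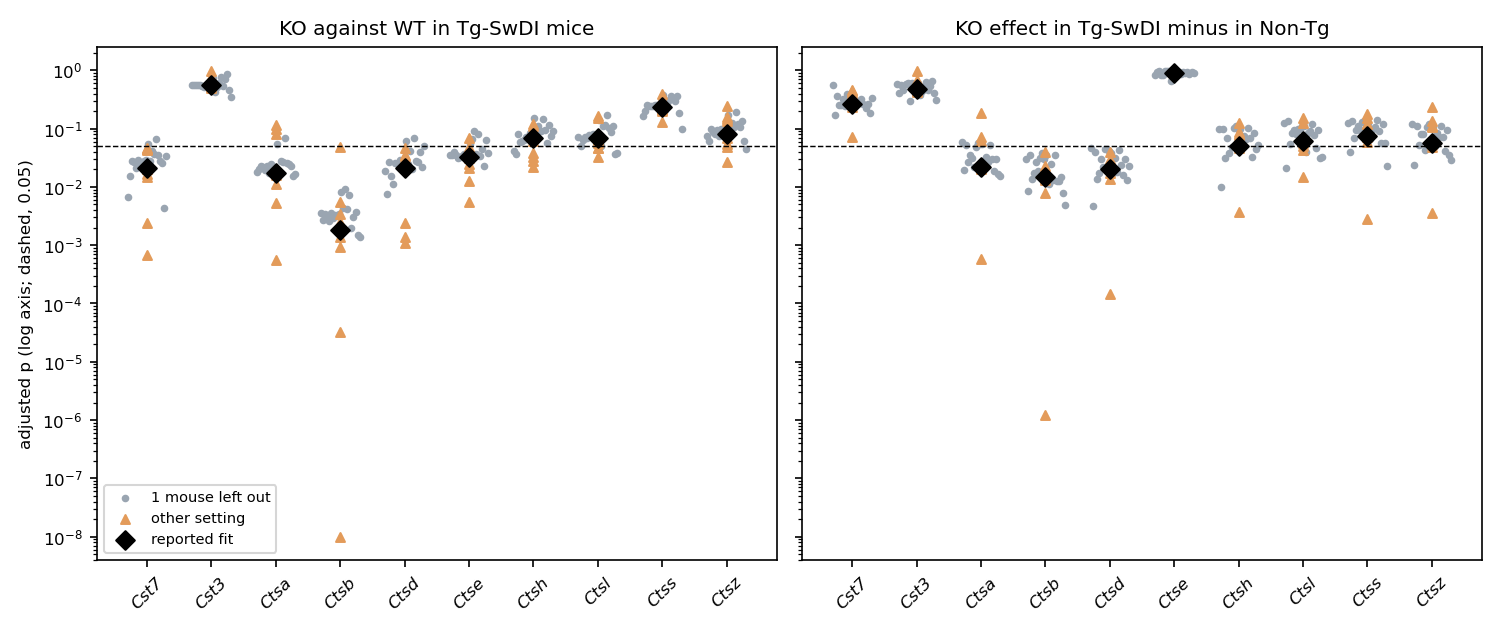
Adjusted p (vertical log axis; dashed line at 0.05) of each member for KO against WT in Tg-SwDI mice (left) and for the difference of the KO effects (right); diamonds are the reported fit, grey points leave out 1 mouse and triangles are other settings, without the replicate block. Ctsb lies below the line throughout both panels and Ctsd throughout the right one, whereas Cst3 and, on the right, Cst7 and Ctse lie above it throughout.

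In Non-Tg mice, which differed by label in miR-34a genotype alone, none of the 10 genes was called with edgeR (quasi-likelihood), and 0% of all genes were. At an unadjusted p below 0.05 there were 6 of the 10 and 1302 of 16107 genes, and no member was called by DESeq2 or edgeR's exact test. The fitted change was downward for 9 genes, with a median log2 fold change of -0.22 over the 10. Ctss was at -0.46 ± 0.14 (77.7 ± 15.1 against 56.6 ± 3.61 CPM, unadjusted p = 0.00458, adjusted p = 0.508), Ctsh at -0.33 ± 0.13 and Ctsz at -0.29 ± 0.11. Ctsd was at -0.27 ± 0.09, from 267 ± 44.8 to 221 ± 8.37 CPM, and its adjusted p was also 0.508. The groups overlapped for all 10 genes, while 0.894% of all genes were lower without overlap. Choroid plexus markers moved with this comparison: their sum ranged from 68.7 to 4500 CPM in WT Non-Tg and from 70.2 to 365 CPM in KO Non-Tg mice, all 14 were fitted lower, and none was called. The 3 WT Non-Tg mice with the most choroid plexus counts (1979 to 4500 CPM), replicates 2, 4 and 7, were also the 3 highest of their group for Ctsd, Ctss, Ctsh, Ctsl, Ctsz, Ctsa and Cst3. The part of choroid plexus tissue in the difference was not tested beyond a covariate. With the choroid plexus level as a covariate, Ctsd was at -0.14 and Ctss at -0.42 on the log2 scale.

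The third question was whether the KO effect differed between Tg-SwDI and Non-Tg mice, tested as an interaction. The difference was positive for all 10 genes, with a median of 0.57 on the log2 scale, and 3 passed the test: Ctsb at 0.38 ± 0.06 (adjusted p = 0.0146), Ctsd at 0.67 ± 0.12 (0.0199) and Ctsa at 0.32 ± 0.07 (0.0216). Among all genes tested, 0.428% were called in this direction. Ctsh was just outside at 0.73 ± 0.17 (0.0505), followed by Ctsz at 0.64 ± 0.15 (0.0575), Ctsl at 0.41 ± 0.10 (0.0604) and Ctss at 0.76 ± 0.20 (0.0746). For Cst7 (0.95 ± 0.43, adjusted p = 0.261), Cst3 (0.19 ± 0.13, 0.477) and Ctse, which had 5 counts in all Non-Tg mice, a difference was not detectable. The Ctsb and Ctsd calls held under each alternative. Their adjusted p was at most 0.0393 and 0.0458 without the replicate block, and 0.0216 and 0.0477 with it. The Ctsa call was lost with the choroid plexus covariate (0.30, adjusted p = 0.0604) and, the replicate block aside, with library size alone, with GC content and length trends removed and when any of WT Non-Tg replicates 2 and 4, KO Non-Tg replicates 7 and 8 or WT Tg-SwDI replicates 3 and 7 was left out (adjusted p up to 0.184). The count of called genes was 7 without WT Non-Tg replicate 3, 5 without KO Non-Tg replicate 2, and 6 without KO Tg-SwDI replicate 2, 5 or 8.

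The cathepsin genes outside the members did not follow as a group. Members and lists were chosen with earlier results of these data known, so this split is no result about the family. Of 16 others listed, 5 passed the filter on low counts, and in Tg-SwDI mice 1 was called higher in WT and 2 in KO mice. Ctsc, which encodes the dipeptidyl peptidase cathepsin C, a target of cystatin F, rose by 0.91 ± 0.16 in WT mice (adjusted p = 0.000673) and 1.43 ± 0.16 in KO mice (1.23e-06) on the log2 scale. Ctso rose only slightly, by 0.26 ± 0.09, and passed the test in KO mice (adjusted p = 0.0353). Ctsk, the collagen-degrading cathepsin of osteoclasts, was at -0.19 ± 0.21 and 0.08 ± 0.21. None of the 5 was called in KO against WT mice. For the transgene in KO mice, 1 rather than 2 was called with the choroid plexus covariate or with library size alone. The count was also 1 with only the 10 mice compared. It was 1 too when any of KO Non-Tg replicates 1, 4, 7 and 8 or KO Tg-SwDI replicates 1, 2 and 3 was left out. With no filter on low counts it was 3. In WT mice it was 2 rather than 1 with only the 10 mice compared and with the replicate block.

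Of 25 other cystatins and cathepsin inhibitors, 23 were in the table and 5 passed the filter. Cstb, the cytosolic cystatin B, was at 0.15 ± 0.08 in WT mice (adjusted p = 0.402) and rose by 0.28 ± 0.08 in KO mice (0.0141). Ctla2b, which resembles the propeptide of a cysteine protease, rose by 1.29 ± 0.29 and 1.22 ± 0.29, and its near-copy Ctla2a rose by 0.74 ± 0.19 in WT mice and was at 0.43 ± 0.19 in KO mice (adjusted p = 0.113). Reads of near-copies such as Ctla2a and Ctla2b may be split between them by the counting. The list had 2 calls in each genotype, but 1 in each with a filter at a mean CPM of at least 1. In WT mice it also had 1 without WT Non-Tg replicate 2, 3 or 6 or WT Tg-SwDI replicate 6. In KO mice it had 1 with the choroid plexus covariate, with GC content and length trends removed or without KO Tg-SwDI replicate 3. It had 3 in KO mice without KO Tg-SwDI replicate 2 or 8.

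Among 14 tested genes for cathepsin processing, sorting and partners, 4 were called higher with the transgene in WT mice and 9 in KO mice, none lower, with median log2 fold changes of 0.05 and 0.19; with the choroid plexus covariate 5 rather than 9 were called in KO mice. Grn, whose product progranulin is cut by cathepsins in the lysosome, rose by 0.82 ± 0.07 and 1.45 ± 0.07, and by 0.53 ± 0.07 in KO against WT Tg-SwDI mice (adjusted p = 0.000121). Its interaction was 0.63 ± 0.09 (adjusted p = 0.00861). Lgmn, the legumain that cuts several cathepsins to their two-chain form, rose by 0.42 ± 0.05 and 0.79 ± 0.05, and by 0.21 ± 0.05 in KO against WT Tg-SwDI mice (adjusted p = 0.0401). The interaction of Lgmn was 0.37 ± 0.08 (adjusted p = 0.0214), and Grn and Lgmn were the 2 of the 14 genes called for the interaction. Glb1 rose by 0.37 ± 0.08 and 0.58 ± 0.08. Neu1 was at -0.01 ± 0.05 in WT mice and rose by 0.14 ± 0.05 in KO mice. The fitted changes of these partners of cathepsin A were smaller than those of Ctsa, a difference between genes that was not tested. Of the regulators that bind CACGTG, Mitf rose by 0.38 ± 0.11 and 0.53 ± 0.11, while Tfeb (0.35 ± 0.09) and Tfe3 (0.21 ± 0.06) were called only in the KO comparison, a difference between genotypes that was not called for any of the 3. Nagpa, which uncovers the mannose 6-phosphate sorting tag, and Tfe3 were raised by miR-34a KO in Tg-SwDI mice, by 0.30 ± 0.08 and 0.23 ± 0.06 (adjusted p = 0.0424 and 0.0289). Of the 14 genes, 4 were called in that comparison (Grn, Lgmn, Nagpa and Tfe3), but 1 without WT Tg-SwDI replicate 3, with library size alone, with only the 10 mice compared and with GC content and length trends removed, and 2 without any of WT Tg-SwDI replicates 5, 6 and 7, KO Tg-SwDI replicate 3 or KO Non-Tg replicate 8.

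Most members, but not Ctsb and Ctse, also varied together between mice of a group. After each group mean was removed from log2 CPM, the 20 mice gave a correlation of 0.80 between Ctss and Ctsz, 0.80 between Cst3 and Ctsz and 0.80 between Ctsl and Ctss, the highest of 45 pairs. Ctsb was near 0 with most others, from -0.08 with Cst3 to 0.15 with Cst7, and higher only with Ctsa (0.35) and Ctsd (0.48). Ctse, with its few counts, was negative with 8 of the other 9 genes, down to -0.43 with Ctsh. The deviations of Ctss and Ctsz followed those of the microglia markers most closely (0.82 and 0.81), whereas Ctsb hardly did (0.07). Ctsd stood out by following the choroid plexus markers (0.72). These points share their libraries, and the values are descriptions over 20 mice in 4 groups.

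Over all 20 mice, with the group differences left in, the 5 genes most like Cst7 in log2 CPM were Ccl6, Tyrobp, Trem2, Itgax and Cd84, with Pearson correlations of 0.989 to 0.994. The 5 most like Ctsd were C1qc, C1qb, Mamdc2, Trem2 and Tyrobp, at 0.991 to 0.992. Such values mostly reflect the gap between Tg-SwDI and Non-Tg mice. With group means removed, the correlations with Cst7 ran from 0.36 (Cd84) to 0.81 (Itgax) and those with Ctsd from 0.58 (Trem2) to 0.82 (Mamdc2).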

How the data were processed

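RNA from the left hippocampus of 20 mice was sequenced by the authors as stranded mRNA libraries, aligned to mm10 with STAR and counted per Ensembl gene with featureCounts; versions are not given in the sources used here. The deposited table holds raw counts per gene and library, with no normalization. Gene symbols came from GENCODE M21, which matched 38872 of 39056 identifiers (99.5%).

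Genes were kept by filterByExpr (minimum count 10, total 15), which left 16107. Libraries were scaled by TMM, and edgeR 4.0.16 (R 4.3.3) fitted quasi-likelihood models to the 4 group means of all 20 mice with robust dispersions, leaving 16 residual degrees of freedom. P-values were two-sided and Benjamini-Hochberg adjusted over all genes, with a threshold of 0.05. CPM were counts over TMM-scaled library sizes; log2 CPM used a prior count of 2. The SE is the fold change over the root of the F statistic. P-values set a change against the spread between mice within groups, estimated over all 4 groups of 5 and not only the groups compared.

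Alternatives were DESeq2 1.42.0, edgeR's exact test, RLE factors, library size alone, no filter, a mean CPM of at least 1, the 10 mice compared, a replicate block and leaving out each mouse. A choroid plexus covariate, a fit with GC content and length trends removed and one without mitochondrial genes were added after seeing the data. The fit was tested on simulated data. All 10 members are named; of the further lists, genes called in any comparison (at most 6 per list) or direct partners of members. The members and lists were chosen with earlier results of these data known. Motif and seed searches used Python 3 and RefSeq or GENCODE sequences.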

Additional observations from a re-analysis of the deposited data

Results flagged for a closer look

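The effect of miR-34a KO differed between Tg-SwDI and Non-Tg mice for 3 of the 10 genes by the interaction test of edgeR's quasi-likelihood fit, a direction in which 0.428% of all genes were called. The difference was 0.38 for Ctsb, 0.67 for Ctsd and 0.32 for Ctsa on the log2 scale, the KO effect being higher in Tg-SwDI mice. The 3 genes were at 0.29, 0.40 and 0.22 in Tg-SwDI mice and at -0.09, -0.27 and -0.11 in Non-Tg mice, where none was called. All 5 KO Non-Tg libraries had few choroid plexus counts, and with those markers as a covariate the differences were 0.37, 0.55 and 0.30, and that of Ctsa was no longer called (adjusted p = 0.0604). No mouse stood apart from the other 4 of its group by Dixon's criterion in any of the 40 combinations of gene and group.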

How the results depend on the processing

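All 10 genes kept their upward direction with the transgene in both genotypes under each alternative. Without any 1 mouse, the number called ranged from 9 to 10 in WT mice and was 10 in KO mice; the filter at a mean CPM of at least 1 removed Ctse. For KO against WT in Tg-SwDI mice, 5 were called, against 8 by DESeq2 and 8 by edgeR's exact test, and from 1 to 7 without 1 mouse. The count was 4 with library size alone, the mean CPM filter, only the 10 mice compared or GC content and length trends removed. For the interaction, 3 were called, against 7 by DESeq2 and 5 with the mean CPM filter, and from 2 to 7 without 1 mouse. Here it was 2 with library size alone, the choroid plexus covariate or GC content and length trends removed. In Non-Tg mice 2 fitted changes turned: Cst3 to 0.0052 with GC content and length trends removed, and Ctse, with its 5 counts, to -0.49 without KO Non-Tg replicate 7 (from -0.49 to 0.949 without 1 mouse). The cause was not tested. Over all genes, 320 were called for KO against WT in Tg-SwDI mice, but 733 by DESeq2, 576 with the choroid plexus covariate, 148 with GC and length trends removed and 58 with only the 10 mice compared; for the interaction, 98 were, but 479, 31 and 23 under the first 3 of these and 59 with library size alone. Without 1 mouse these counts ran from 78 (WT Tg-SwDI replicate 7) to 701 (KO Tg-SwDI replicate 2), and from 14 (KO Non-Tg replicate 7) to 510 (KO Tg-SwDI replicate 2). With the choroid plexus covariate, 1221 rather than 3351 genes were called for the transgene in KO mice.

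The replicate numbers carry no stated pairing. Over 12 pairs of libraries sharing a number, the correlation of deviations ran from -0.40 to 0.15. So few pairs cannot exclude a source of spread shared by mice with the same number. With the replicate block, 0 of the 10 genes were called for KO against WT in Tg-SwDI mice (Ctsb 0.28, adjusted p = 0.0781) and 2 for the interaction, beside 8 and 38 of all 16107 genes. Depth limits Cst7 and Ctse in Non-Tg mice, where each had few counts.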
